A study of Mus musculus with 12 samples.

Results

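A set of 10 genes whose products fold glycoproteins and form disulfide bonds in the endoplasmic reticulum (ER) was followed in mouse regulatory T cells (Treg). They were chosen by name, with earlier results of these data known, and looked up by symbol in the count files. All 10 were among the 23337 gene symbols listed, and all 10 were among the 12038 that passed the filter on low counts. They are the lectin chaperones Calr and Canx, the glycan enzymes Ganab and Uggt1, the disulfide isomerases Pdia3, Pdia4, Pdia6, P4hb and Txndc5, and the oxidase Ero1l.

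In the calnexin cycle, a new glycoprotein is trimmed by glucosidase II until a single glucose is left on its glycan, and the lectins calnexin and calreticulin then hold it in the ER lumen. A glucosyltransferase puts the glucose back on proteins that are not yet folded, which returns them to the lectins. Protein disulfide isomerases make and reshuffle the disulfide bonds of these clients, and ER oxidases supply the oxidising power. Lymphocytes need this machinery for receptors, cytokines and MHC molecules, and cells whose ER is loaded with unfolded protein raise many of its genes through the transcription factors Xbp1 and Atf6.

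RNA was sequenced from Treg of C57BL/6 mice aged 8 weeks, in 4 groups of 3 libraries, 12 in all. Induced Treg (iTreg) were grown from spleen and lymph node CD4 T cells in IL-2 and TGF-beta over 5 days, and the GFP-positive cells were then taken. Natural Treg (nTreg) were sorted from the same organs as CD4-positive, GFP-positive cells. KO-labelled mice had both alleles of Hrd1 floxed, and WT-labelled mice had a floxed and an intact allele. Hrd1, listed as Syvn1, is a ubiquitin ligase that marks misfolded ER proteins for degradation. Both labels carried Foxp3-Cre with GFP, which acts where Foxp3 is expressed, so no group was free of Cre or of a floxed allele. In iTreg, Foxp3 comes on during the culture. Whether the 3 libraries of a group stem from 3 mice is not in the labels, and each p-value is therefore set against a spread that may be partly technical.

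Total counts ran from 9607726 to 12691976 in iTreg KO, from 11332590 to 13223102 in iTreg WT, from 8609283 to 15462894 in nTreg KO and from 6763458 to 10845948 in nTreg WT. Foxp3, Cd4, Cd3e, Il2ra, Ctla4 and Ikzf2 were detected in every library. With either label 5 of these 6 were lower in iTreg than in nTreg, and Il2ra was higher. Of all genes tested, 29.8% were lower with the KO label and 30.4% with the WT label. Mean Ikzf2 was 27.5 CPM (counts scaled to a common library total) in iTreg KO and 25.5 in iTreg WT, against 882 in nTreg KO and 1091 in nTreg WT. Foxp3 was at 392, 191 and 375 CPM in iTreg KO libraries 1 to 3. Syvn1 stood at 63.6 ± 9.26 CPM in iTreg KO and 78.3 ± 20.5 in iTreg WT, and at 137 ± 7.94 in nTreg KO and 78.8 ± 7.33 in nTreg WT (SD, n = 3 each). The nTreg value goes against the label (log2 fold change 0.80, SE 0.17, adjusted p = 0.023). This call was lost without any 1 of the 6 nTreg libraries (adjusted p from 0.056 to 0.12), without the Xist libraries (0.31) and without both nTreg libraries numbered 2 (0.17). A gene-level count also takes in exons beyond the floxed ones and does not check the label. KO and WT below therefore mean the libraries labelled so. Xist, a gene of female cells, was at 2027 CPM in iTreg WT 2, 483 in nTreg KO 3 and 729 in nTreg WT 3, and at most 0.232 elsewhere. The Y chromosome gene Ddx3y was at 0 CPM in iTreg WT 2, 141 in nTreg KO 3 and 103 in nTreg WT 3. It was at 112 and 147 in iTreg WT 1 and 3. The libraries of iTreg WT, nTreg KO and nTreg WT were thus not all repeats of 1 animal, and sex was uneven over the groups. The macrophage gene Csf1r was at 195 CPM in nTreg KO 2 and 95.3 in nTreg WT 2, against at most 34.5 in the other 10 libraries. Where a call on KO against WT or between cell types ended without the 3 Xist libraries, or without both nTreg libraries numbered 2, its adjusted p in that fit is given or the loss is named beside it.

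Several of these genes are textbook targets of ER stress factors, so the 250 bases before each RefSeq transcript start (GRCm38.p6, 12 windows for the 10 genes) were searched on both strands for the ER stress response element, which is CCAAT and CCACG with 9 bases of any kind between them. An exact match was found for Calr, Canx and Pdia6, 3 of the 10 genes, and in 0.113% of the 32851 windows in the table. With up to 1 mismatch allowed, Pdia3 and Pdia4 were added, which makes 5 of 10 genes, beside 1.32% of all windows. Several of the 10 genes were known targets when chosen, and a gene can have more than 1 window. These shares therefore do not test for an excess. All 5 genes were higher in KO-labelled nTreg, as were P4hb and Txndc5, which held no such element. A link between the element and the label was not tested. Capitals mark the element, printed 5′ to 3′ on the gene's strand.
Calr, chr8:84847070-84847098, minus strand, reverse orientation: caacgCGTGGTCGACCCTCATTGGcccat
Canx, chr11:50325795-50325823, minus strand: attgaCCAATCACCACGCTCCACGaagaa
Pdia6, chr12:17266486-17266514, plus strand: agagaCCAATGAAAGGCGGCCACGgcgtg
Pdia3, chr2:121413868-121413896, plus strand, G19A: cgcagCCAATCGGCGGCTGCCACActgcg
Pdia4, chr6:47813597-47813625, minus strand, reverse orientation, G19T: aaccgAGTGGCAGCCCGTGATTGGtggtc

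The substitutions count from 1 at the 5′ end of the element, with its letter before the number and the letter of the gene after it. The Calr element began 162 bases before the transcript start, that of Canx 145, that of Pdia4 108, that of Pdia6 98 and that of Pdia3 29. Txndc5 held the unfolded protein response element TGACGTGG, also found in 0.563% of windows, and TGATGNAAN, the element named for C/EBP and ATF, found in 3.44%.
Txndc5, chr13:38528040-38528057, minus strand: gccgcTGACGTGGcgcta

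The second ER stress response element, ATTGG and CCACG with 1 base of any kind between them, was in none of the 10 genes and in 0.0304% of windows. P4hb, Ganab, Uggt1 and Ero1l held none of these letters in their windows. A match describes the sequence and is not shown here to be a bound site.

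The study set KO against WT to ask what loss of Hrd1 does in each kind of Treg. In iTreg, 3 of the 10 genes rose and none fell, where 0.166% of all genes tested rose and 0.0166% fell: Pdia6 by 2.89-fold, Calr by 1.91-fold and Pdia3 by 1.66-fold. In nTreg, 7 of the 10 rose and none fell, where 2.18% of all genes tested rose and 0.341% fell: Pdia6 by 5.30-fold, Pdia4 by 3.41-fold, P4hb by 2.72-fold, Calr by 2.50-fold, Canx by 2.43-fold, Pdia3 by 2.30-fold and Txndc5 by 2.10-fold. Ganab, Uggt1 and Ero1l passed the test in neither. The median log2 fold change of the 10 genes was 0.35 in iTreg and 1.24 in nTreg, where the medians of all 12038 genes were -0.01 and 0.01. All 3 KO libraries lay above all 3 WT libraries for 6 of the 10 genes in iTreg (4.68% of all genes) and for 9 of 10 in nTreg (15.7%). Because the 10 genes were chosen with earlier results of these data known, setting them beside these shares does not test for an excess. The 10 genes together took 0.569% ± 0.121 of all counts in iTreg KO and 0.395% ± 0.0505 in iTreg WT. They took 0.601% ± 0.0275 in nTreg KO and 0.255% ± 0.00172 in nTreg WT.

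Values are CPM after TMM normalisation, and tests are by edgeR (quasi-likelihood), with p adjusted by Benjamini-Hochberg over all 12038 genes and called at 0.05. Each gene has a spread estimated over all 12 libraries, so SE and intervals in either cell type also reflect the spread in the other. In bulk RNA a change in the kinds of cells and a change in RNA per cell cannot be told apart. The iTreg calls rested on few libraries and on a spread shared with the nTreg libraries. None of the 3 remained in a fit of the 6 iTreg libraries alone (adjusted p = 0.21 for Pdia6, 0.66 for Calr and Pdia3), without iTreg WT 1 (0.053 for Pdia6) or without the 3 Xist libraries (0.17 for Pdia6). No other gene was called in these fits either. For nTreg, a fit of its 6 libraries alone called 1142 genes, where the fit of all 12 libraries called 304. Pdia6 was the only member called without iTreg WT 2, without iTreg KO 1, without iTreg KO 2 or without both nTreg libraries numbered 2, while Calr alone was lost without iTreg WT 3 (0.053). Fold changes moved less: without each iTreg library in turn, that of Pdia6 ran from 1.35 to 1.72 and that of Calr from 0.76 to 1.09 on the log2 scale. With the library number as a block per cell type, all 3 calls were kept (adjusted p = 7.6e-04 for Pdia6, 0.0047 for Calr and 0.014 for Pdia3).

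**Figure D1:**
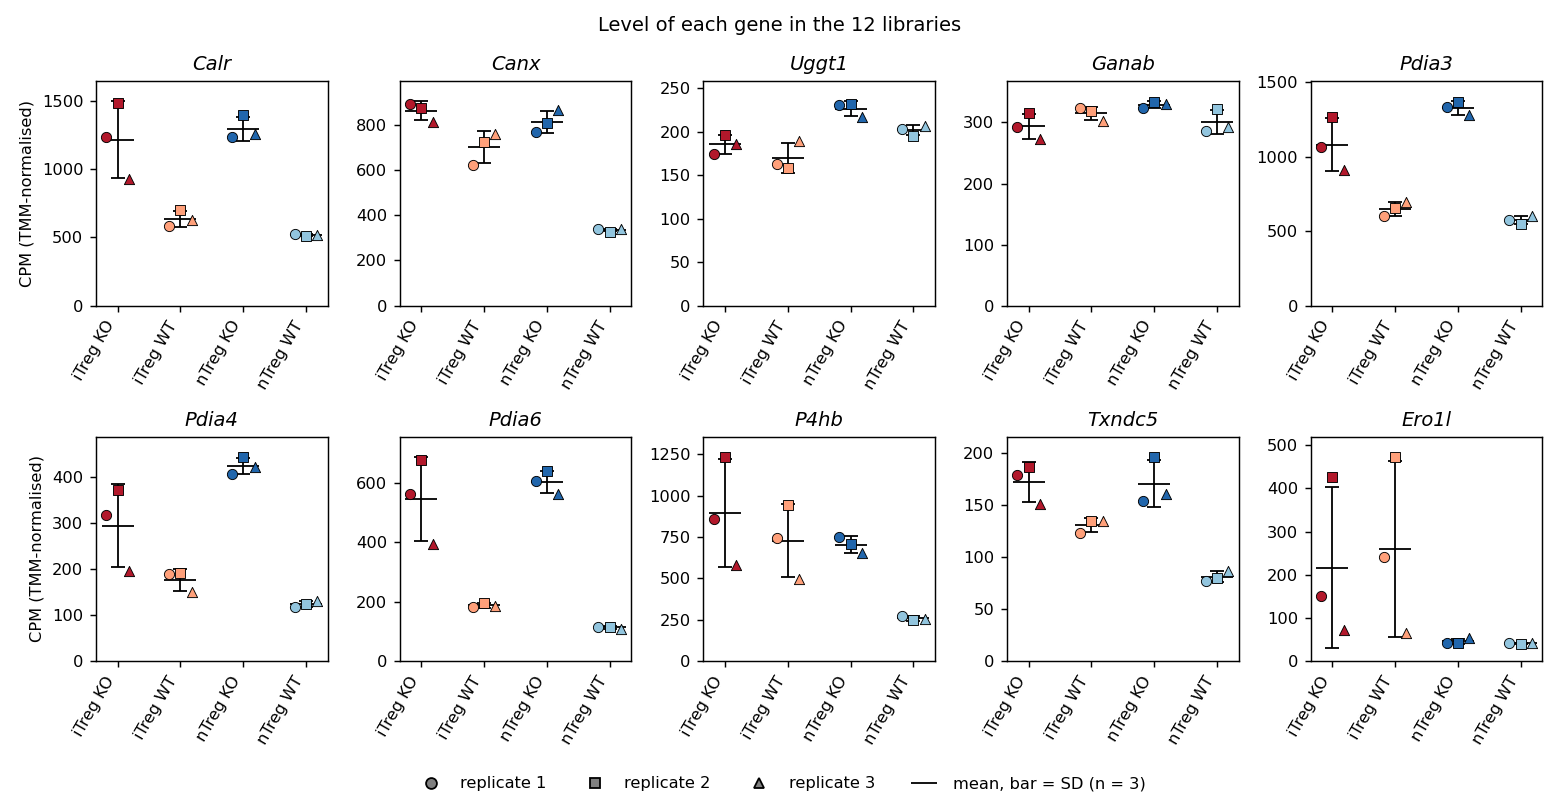
Level of each of the 10 genes in CPM (y axis, from 0) in the 3 libraries of iTreg KO, iTreg WT, nTreg KO and nTreg WT, with the marker shape giving the library number, the line the mean and the bar the SD. In nTreg the KO points lie above the WT points for every gene but Ero1l, and in iTreg the libraries numbered 2 and 3 of P4hb and Ero1l sit high and low with both labels.

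Calreticulin, the soluble lectin of the ER lumen, is encoded by Calr (chr8:84841850-84846934, mm10, minus strand). It stood at 1232, 1487 and 925 CPM in iTreg KO libraries 1 to 3 and at 582, 699.8 and 629 in iTreg WT. In nTreg it stood at 1237, 1399 and 1255 CPM in KO and at 524, 513 and 517 in WT. KO and WT libraries did not overlap in either cell type, and the lowest KO library was iTreg KO 3. The log2 fold change was 0.93 in iTreg (SE 0.15, adjusted p = 0.032) and 1.32 in nTreg (SE 0.15, adjusted p = 2.9e-04). A processed pseudogene, Calr-ps, shares 92.5% of 495 bases with the Calr transcript and is not listed in the files, so how the counting shared such reads is not known.

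Canx (chr11:50293961-50325673, minus strand) encodes calnexin, the membrane-bound lectin that works beside calreticulin. Its levels were 894, 876 and 813 CPM in iTreg KO, 621, 724 and 759 in iTreg WT, 769.6, 806 and 866 in nTreg KO, and 338, 327 and 338 in nTreg WT. The nTreg WT libraries were the only low ones, and those of iTreg KO and nTreg KO covered much the same range. Canx was 2.43-fold higher with the KO label in nTreg (log2 1.28, SE 0.10, adjusted p = 2.0e-05). In iTreg the KO libraries also lay above the WT libraries, but by a fold of 1.23 that did not pass (log2 0.30, SE 0.10, adjusted p = 0.46).

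Counts within a library compare the lectins without normalisation between libraries. The counts of Calr divided by those of Canx gave 1.38, 1.70 and 1.14 in iTreg KO and 0.938, 0.967 and 0.828 in iTreg WT, with no overlap. In nTreg the ratio was 1.61, 1.74 and 1.45 in KO and 1.55, 1.57 and 1.53 in WT, which overlapped. A two-sided exact permutation test of the log2 ratio gave p = 0.1 in iTreg, the smallest value that 3 libraries against 3 can give, and p = 0.7 in nTreg.

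Glucosidase II, whose catalytic subunit is encoded by Ganab (chr19:8898071-8916672, plus strand), trims the glycan before and after lectin binding. Ganab was at 292, 315 and 273 CPM in iTreg KO, 323, 319.5 and 303 in iTreg WT, 323, 334 and 331 in nTreg KO, and 286, 323 and 293 in nTreg WT. All 12 libraries lay between 273 and 334 CPM, the narrowest range of the 10 genes relative to its level, and no comparison of it passed. Its log2 fold change was -0.10 in iTreg (95% interval -0.30 to 0.09) and 0.13 in nTreg (-0.06 to 0.32). Prkcsh, the other subunit of the enzyme, had values of -0.10 in iTreg (SE 0.16) and 0.08 in nTreg (SE 0.16), and neither passed.

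Uggt1 (chr1:36140027-36244720, minus strand) encodes the glucosyltransferase that re-glucosylates unfolded glycoproteins. It was at 174, 196 and 186 CPM in iTreg KO, 163, 158 and 189.6 in iTreg WT, 231, 232 and 217 in nTreg KO, and 204, 195 and 206 in nTreg WT. The nTreg KO libraries lay just above nTreg WT, and the iTreg groups overlapped. Its log2 fold change was 0.13 in iTreg (95% interval -0.08 to 0.33) and 0.17 in nTreg (-0.04 to 0.38), and neither passed (adjusted p = 0.82 and 0.48). The intervals of Ganab and Uggt1 in nTreg end below the lower bounds of all 7 genes that rose there, the lowest of which was 0.81 for Txndc5.

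Among the isomerases, Pdia3 (chr2:121413775-121438687, plus strand) encodes ERp57, which binds the lectins and acts on the glycoproteins that they hold. It was at 1063, 1266 and 909.6 CPM in iTreg KO and 598, 652 and 695 in iTreg WT, and at 1334, 1365 and 1277 in nTreg KO and 576, 548 and 602 in nTreg WT. The groups did not overlap in either cell type. The log2 fold change was 0.73 in iTreg (SE 0.12, adjusted p = 0.034) and 1.20 in nTreg (SE 0.12, adjusted p = 1.2e-04), so Pdia3, like Calr, rose in both.

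Pdia6 (chr12:17266545-17284770, plus strand) encodes P5, an isomerase that works with the chaperone BiP. Libraries held 564, 676 and 396 CPM in iTreg KO and 181, 197 and 187 in iTreg WT. They held 606, 638 and 562 CPM in nTreg KO and 116, 116 and 109 in nTreg WT. The lowest KO library was above the highest WT library by a wide margin in both cell types. Pdia6 had the largest fold change of the 10 genes in both, with a log2 value of 1.53 in iTreg (SE 0.16, adjusted p = 0.0041) and 2.41 in nTreg (SE 0.16, adjusted p = 1.1e-05).

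ERp72, an isomerase found in complexes of ER chaperones, is the product of Pdia4 (chr6:47796141-47813430, minus strand). Levels were 316, 370.3 and 195 CPM in iTreg KO, 188, 191 and 149 in iTreg WT, 406, 443 and 420.5 in nTreg KO, and 118, 123 and 131 in nTreg WT. In nTreg the groups stood far apart, and in iTreg KO library 3 lay just above the highest WT library. The nTreg change passed (log2 1.77, SE 0.19, adjusted p = 2.5e-04). The iTreg change did not (0.74, SE 0.19, adjusted p = 0.26), but it passed with the library number as a block per cell type (0.70, SE 0.10, adjusted p = 0.014) and without iTreg KO 3 (0.96, adjusted p = 0.0053).

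Txndc5 (chr13:38500079-38528824, minus strand) encodes ERp46, an isomerase that quickly introduces disulfide bonds. It was at 179, 187 and 151 CPM in iTreg KO, 123, 134 and 135 in iTreg WT, 154, 196 and 161 in nTreg KO, and 76.8, 80.1 and 86.6 in nTreg WT. The groups did not overlap in either cell type. Txndc5 rose in nTreg (log2 1.07, SE 0.12, adjusted p = 2.5e-04), while its iTreg value of 0.40 (SE 0.11, adjusted p = 0.36) did not pass. Its exons share 224 bases with Bmp6 on the opposite strand, and whether the counting used strand is not given in the sources used here.

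P4hb (chr11:120560298-120573253, minus strand) encodes protein disulfide isomerase itself, which is also a subunit of the collagen prolyl 4-hydroxylases. In iTreg it was at 862, 1234 and 584 CPM in KO and 744, 941 and 499 in WT. In nTreg it was at 754, 708 and 651 CPM in KO and 274, 248 and 256 in WT. The iTreg groups overlapped widely, with library 2 high and library 3 low under both labels, and the nTreg groups did not overlap. P4hb rose in nTreg (log2 1.44, SE 0.25, adjusted p = 0.0080), a call lost without nTreg WT 2 (0.051), without the Xist libraries (0.12) or without both nTreg libraries numbered 2 (0.16). Its iTreg value was 0.29 (SE 0.25, adjusted p = 0.85). Ratios of KO to WT within a library number were 1.16, 1.31 and 1.17 in iTreg, far closer to each other than the iTreg levels were, and 2.75, 2.86 and 2.55 in nTreg.

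The oxidase Ero1l (chr14:45283087-45318771, minus strand), called Ero1a in newer annotation, passes oxidising equivalents to the isomerases. It was at 151, 427 and 72.9 CPM in iTreg KO and 242, 473 and 65.2 in iTreg WT, and at 42.3, 42.5 and 52.8 in nTreg KO and 42.4, 39.6 and 42.0 in nTreg WT. KO and WT overlapped in both cell types, and the level in iTreg went with the library number rather than with the label. The log2 fold changes were -0.26 in iTreg (95% interval -1.61 to 1.08) and 0.15 in nTreg (-1.26 to 1.56). Changes of over 2-fold either way lie within these intervals. The spread was estimated over all 12 libraries, and the iTreg libraries varied far more. The nTreg interval therefore does not describe the spread of the nTreg libraries alone. With the library number as a block the standard errors were 0.14 and 0.15, the values -0.23 and 0.15, and neither passed (adjusted p = 0.44 and 0.61).

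**Figure D2:**
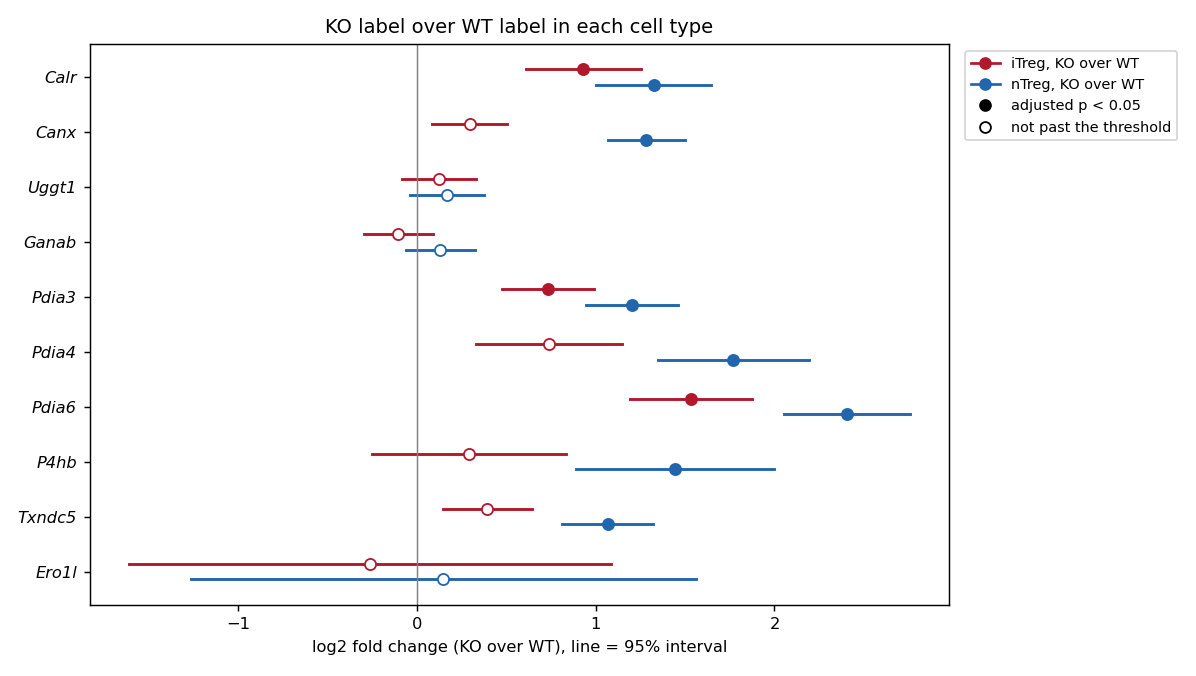
Log2 fold change of KO over WT (x axis) for each gene in iTreg and in nTreg, with the 95% interval as a line and filled points where adjusted p was under 0.05. The nTreg point lies to the right of the iTreg point for all 10 genes, and the intervals of Ero1l are the widest.

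The difference of the KO effects, iTreg minus nTreg, was tested in the same model. It was negative for all 10 genes. It was positive for 5469 of all 12038 genes tested, and for only 11 of the 53 related genes described below. The test was passed by 1 of the 10, Canx, where 0.274% of all genes tested were lower in this sense. The Canx effect was smaller in iTreg by 0.99 on the log2 scale (difference -0.99, SE 0.14, adjusted p = 0.012). The call was lost without any 1 of the nTreg WT libraries (adjusted p from 0.053 to 0.055), without the Xist libraries (0.47) and without both nTreg libraries numbered 2 (0.20), with differences from -0.996 to -0.93. Of the others, P4hb had a difference of -1.15 (SE 0.35, adjusted p = 0.34), Pdia4 of -1.03 (SE 0.27, adjusted p = 0.20), Pdia6 of -0.87 (SE 0.22, adjusted p = 0.19) and Txndc5 of -0.67 (SE 0.16, adjusted p = 0.17). With the library number as a block per cell type these 4 passed too (adjusted p = 0.0013 for P4hb, 0.0088 for Pdia4, 0.033 for Pdia6 and 0.046 for Txndc5), so that 5 of 10 were called, where 217 of all 12038 genes were called with the block. Calr at -0.39 and Pdia3 at -0.47 passed in neither fit. The differences of Ganab (-0.23), Uggt1 (-0.04) and Ero1l (-0.41) did not pass either.

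**Figure D3:**
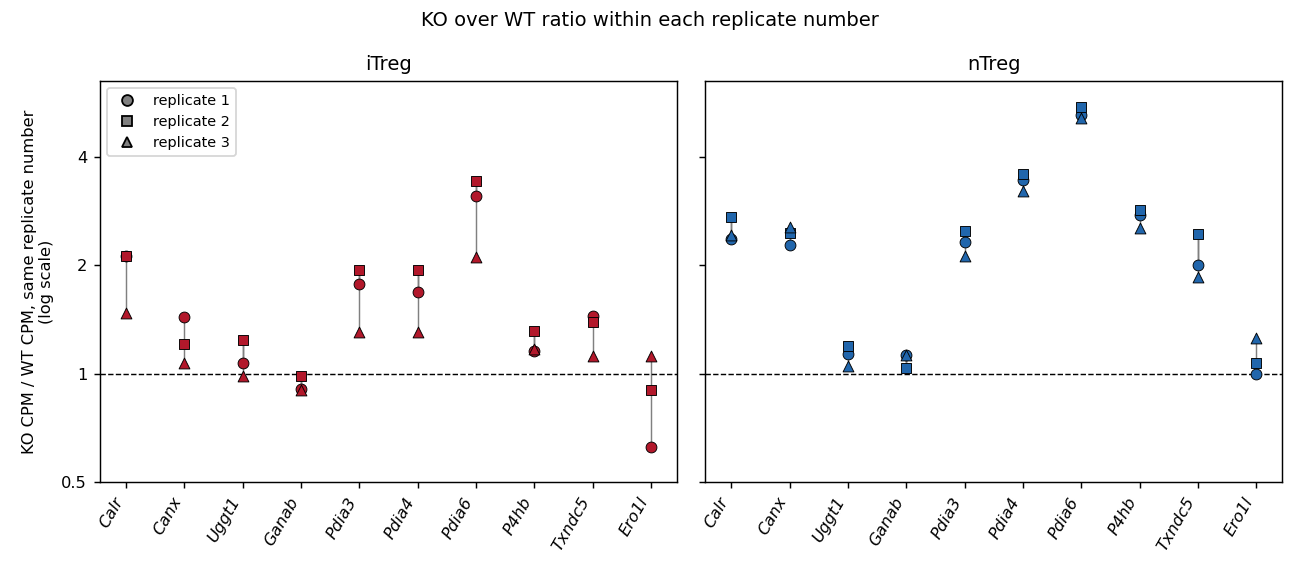
KO CPM divided by WT CPM of the library with the same number (y axis, log scale) for each gene in iTreg and nTreg, with the marker shape giving the number and the dashed line no difference. Pdia6 has ratios of 3.11, 3.44 and 2.11 in iTreg and 5.25, 5.50 and 5.14 in nTreg, and those of Ganab lie just below 1 in iTreg and just above it in nTreg.

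In iTreg the pair numbered 3 had the smallest ratio of KO to WT for Calr, Canx, Uggt1, Ganab, Pdia3, Pdia4, Pdia6 and Txndc5. For Pdia3 the ratios of pairs 1 to 3 were 1.78, 1.94 and 1.31 in iTreg and 2.31, 2.49 and 2.12 in nTreg. For Canx they were 1.44, 1.21 and 1.07 in iTreg and 2.28, 2.46 and 2.56 in nTreg. No iTreg ratio of Canx reached the lowest in nTreg.

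iTreg were also set against nTreg with each label. With the WT label, 6 of the 10 genes were higher in iTreg and 1, Uggt1, was lower, where 34.8% of all genes tested were higher and 30.4% lower. With the KO label 1 gene, Ero1l, was higher and 3, Uggt1, Pdia3 and Pdia4, were lower, where 32.1% and 29.8% of all genes were. With most of the transcriptome different between the cell types, a share of this size sets the 10 genes apart in neither comparison. These comparisons share their libraries with those of KO against WT, so their values are not independent of the ones above.

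Canx was 2.10-fold higher in iTreg WT than in nTreg WT (log2 1.07, SE 0.10, adjusted p = 2.0e-06), and P4hb was 2.81-fold higher (1.49, SE 0.25, adjusted p = 2.8e-04). Pdia6 was 1.66-fold higher (adjusted p = 0.0013), Txndc5 1.61-fold (adjusted p = 2.5e-04) and Pdia4 1.42-fold (adjusted p = 0.033). With the KO label none of these 5 was higher in iTreg. Canx then had a log2 value of 0.08 (SE 0.10), Txndc5 of 0.01 (SE 0.11), Pdia6 of -0.14 (SE 0.15) and P4hb of 0.34 (SE 0.25), none past the threshold. Pdia4 at -0.53 (SE 0.19, adjusted p = 0.027) and Pdia3 at -0.30 (SE 0.12, adjusted p = 0.044) were lower in iTreg KO than in nTreg KO. Calr, at 0.30 with the WT label (SE 0.15, adjusted p = 0.092) and -0.09 with the KO label (SE 0.15, adjusted p = 0.59), passed in neither.

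Uggt1 was lower in iTreg with both labels, by a log2 value of -0.29 with the KO label (SE 0.10, adjusted p = 0.019) and -0.25 with the WT label (SE 0.10, adjusted p = 0.038). Ero1l was higher in iTreg with both, by 2.24 with the KO label (SE 0.66, adjusted p = 0.010) and 2.65 with the WT label (SE 0.67, adjusted p = 0.0040), and its lowest iTreg library, at 65.2 CPM, was above its highest nTreg library, at 52.8. The calls of Uggt1 and Pdia4 with the WT label ended without any 1 of 5 of the 6 libraries (iTreg WT 3 was the exception for both), and that of Ero1l with the KO label ended without iTreg KO 2 (1.28, adjusted p = 0.11). With the KO label, the call of Pdia3 ended without any 1 of 5 libraries (iTreg KO 2 was the exception), that of Pdia4 without nTreg KO 2, nTreg KO 3 or iTreg KO 3, and that of Uggt1 without nTreg KO 1, nTreg KO 2 or iTreg KO 1. Without both nTreg libraries numbered 2, all 4 calls with the KO label ended, as did those of Pdia4 (adjusted p = 0.094) and Uggt1 (0.076) with the WT label. Without the Xist libraries, the calls of Pdia3 (adjusted p = 0.11) and Pdia4 (0.090) ended with the KO label, and those of Pdia4 (0.17), Uggt1 (0.27) and Ero1l (1.90 on the log2 scale, adjusted p = 0.084) with the WT label.

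**Figure D4:**
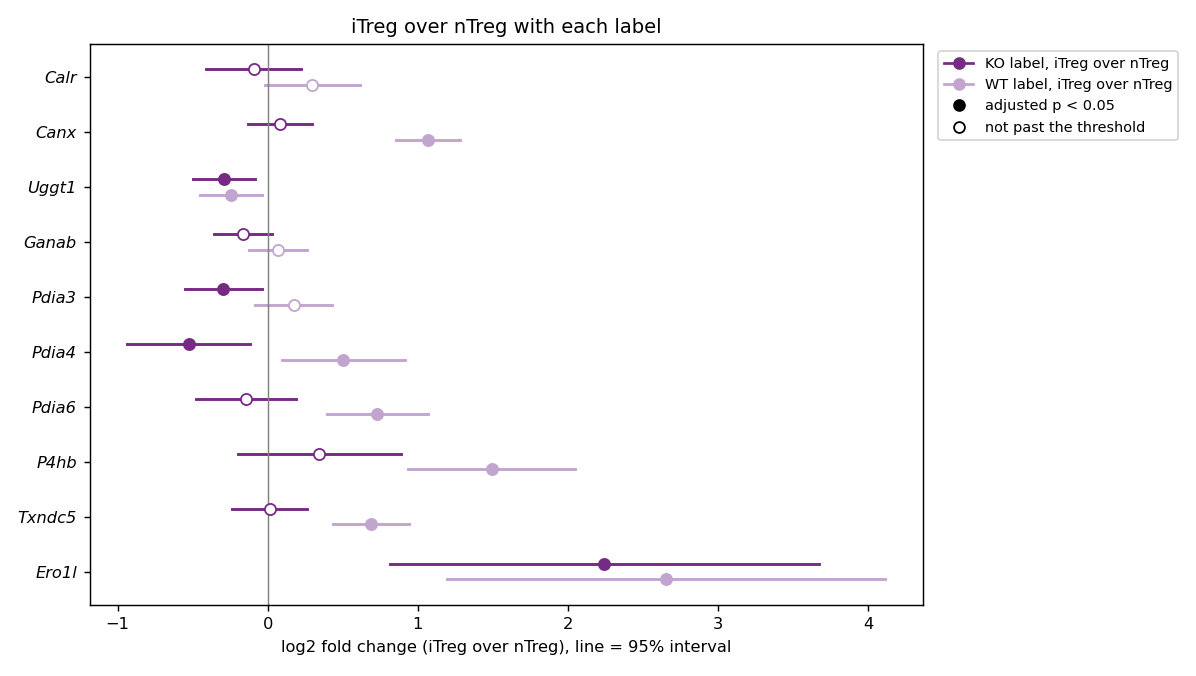
Log2 fold change of iTreg over nTreg (x axis) for each gene with the KO label and with the WT label, with the 95% interval as a line and filled points where adjusted p was under 0.05. Ero1l lies far to the right with both labels, and Canx, Pdia6, P4hb and Txndc5 lie to the right of 0 with the WT label and near it with the KO label.

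Levels of different genes were compared as CPM per kilobase of exon. Calr had the highest mean in all 4 groups, at 556 ± 129 in iTreg KO, 292 ± 27.1 in iTreg WT, 594 ± 40.5 in nTreg KO and 237 ± 2.57 in nTreg WT (SD, n = 3 each). Pdia3 followed in 3 groups, at 389.8 ± 64.6 in iTreg KO, 478 ± 16.1 in nTreg KO and 208 ± 9.75 in nTreg WT, while in iTreg WT P4hb followed at 255 ± 77.4. In iTreg KO, neighbours in the order overlapped in their libraries from Calr down to Canx, so the order of the top 5 (Calr, Pdia3, P4hb, Pdia6, Canx) is not fixed there. In nTreg KO neither Calr and Pdia3 nor Pdia3 and Pdia6 overlapped, while Pdia6 overlapped P4hb.

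At the low end stood Uggt1 in iTreg, with 20.5 ± 1.23 in KO and 18.8 ± 1.88 in WT, and Ero1l in nTreg, with 10.4 ± 1.36 in KO and 9.35 ± 0.336 in WT, all in CPM per kilobase. The level of Calr was 27.1-fold above that of the lowest gene in iTreg KO, 15.5-fold in iTreg WT, 57.2-fold in nTreg KO and 25.4-fold in nTreg WT. Pdia6 ranked 3rd in nTreg KO, with 277 ± 17.6, and 6th in nTreg WT, with 52.2 ± 1.72, level with Pdia4 at 51.7 ± 2.66. Ganab, at 76.1 ± 5.45 in iTreg KO, 81.6 ± 2.82 in iTreg WT, 85.3 ± 1.37 in nTreg KO and 77.9 ± 5.01 in nTreg WT, was level with Canx in nTreg WT (78.0 ± 1.40) and stood below it in the other 3 groups.

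The members did not all vary together over the 12 libraries. Each was correlated, as log2 CPM, with the mean of the other 9, as a description of libraries that share groups and numbers. Pearson's r was 0.822 to 0.961 for Calr, Canx, Pdia3, Pdia4, Pdia6, P4hb and Txndc5, with the highest for Pdia4. It was 0.348 for Ganab, 0.186 for Ero1l and 0.124 for Uggt1. Within the 6 iTreg libraries P4hb went with Ero1l at 0.899, and with Canx at 0.282. The values over 12 libraries mix both cell types. Within the 6 nTreg libraries, r with Calr was 0.920 for Uggt1, 0.773 for Ganab and 0.518 for Ero1l. Within the 6 iTreg libraries it was 0.537 for Uggt1, -0.285 for Ganab and 0.213 for Ero1l.

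Outside the lists of related genes, the 5 genes whose log2 CPM was most like the mean of the 10 over the 12 libraries were Ostc (Pearson's r 0.984, Spearman's rho 0.958), Sdf2l1 (0.981 and 0.958), Hsp90b1 (0.977 and 0.972), Chchd10 (0.976 and 0.951) and Sars (0.974 and 0.944). Ostc encodes a subunit of the enzyme that attaches N-glycans, Sdf2l1 an ER lumen protein, Hsp90b1 the ER chaperone GRP94, Chchd10 a mitochondrial protein and Sars the seryl-tRNA synthetase. Hsp90b1 stood at 1315, 1640.2 and 872 CPM in iTreg KO, 595, 664 and 522 in iTreg WT, 1388, 1572 and 1465 in nTreg KO, and 383, 369 and 439 in nTreg WT. Its iTreg KO library 3 was the lowest of the KO libraries, as that of Calr, Pdia3, Pdia4 and Pdia6 was.

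Ero1l had other neighbours, looked for after its values were seen: Ppme1 (Pearson's r 0.997), Egln1 (0.992) and Slc2a1 (0.989). Ppme1 encodes a methylesterase of protein phosphatase 2A, Egln1 the oxygen-sensing prolyl hydroxylase PHD2, and Slc2a1 the glucose transporter GLUT1. Slc2a1 was at 165, 526 and 109 CPM in iTreg KO, 357, 478 and 102 in iTreg WT, 63.8, 52.0 and 60.3 in nTreg KO, and 62.8, 62.4 and 55.6 in nTreg WT. As with Ero1l, iTreg library 2 was high and library 3 low with both labels, and the nTreg libraries were lower and alike.

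A list of 62 related genes, from the rest of the glycan cycle, the isomerase family, ER redox enzymes and protein partners, was read beside the 10, and 53 of the 62 were tested. This list, too, was chosen with earlier results of these data known. In iTreg KO against WT 1 of the 53 rose and none fell, where 0.166% of all genes tested rose, and the median log2 fold change of the 53 was -0.10. In nTreg 7 of the 53 rose and none fell, where 2.18% of all genes tested rose, and the median was 0.06. The medians of all genes were -0.01 in iTreg and 0.01 in nTreg, and those of the 10 were 0.35 and 1.24.

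Dnajb11, a BiP cochaperone of the ER, passed in both cell types, with 239, 284 and 193 CPM in iTreg KO and 113, 128 and 154 in iTreg WT (log2 0.86, SE 0.15, adjusted p = 0.043), and with 239, 254 and 247 in nTreg KO and 111, 96.3 and 107 in nTreg WT (1.24, SE 0.15, adjusted p = 4.4e-04). The iTreg call was lost in the same fits as that of Pdia3 and, like it, kept without iTreg WT 3 and without iTreg KO 3. Of the sugar-binding cargo receptors for exit from the ER, Lman1 rose in nTreg by a log2 value of 1.03 (SE 0.13, adjusted p = 8.6e-04) and Lman2 by 0.69 (SE 0.10, adjusted p = 0.0021). Both calls were lost without the Xist libraries (adjusted p = 0.051 for Lman1 and 0.075 for Lman2), and that of Lman2 also without both nTreg libraries numbered 2 (0.085). Mcfd2, the partner of Lman1, rose by 0.89 (SE 0.16, adjusted p = 0.0089), a call lost without nTreg WT 2, nTreg WT 3 or nTreg KO 2 (adjusted p from 0.050 to 0.061), without the Xist libraries (0.21) and without both nTreg libraries numbered 2 (0.23).

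In the isomerase family 2 of 14 tested genes rose in nTreg. Txndc11 was at 147, 136 and 120 CPM in nTreg KO and 50.1, 40.8 and 44.4 in nTreg WT (log2 1.58, SE 0.15, adjusted p = 9.5e-05), with no overlap. Pdia5, a rare member, had 210 reads in the 3 nTreg KO libraries and 3 in the 3 nTreg WT libraries, a ratio of 51.0 (95% counting interval 17.2 to 249; adjusted p = 7.5e-04). Its level was 8.11, 6.93 and 3.24 CPM in nTreg KO and at most 0.283 in nTreg WT.

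Of 12 tested ER redox enzymes, Ero1lb, the paralogue of Ero1l, was the only one to rise in nTreg, with 44.8, 49.8 and 44.0 CPM in KO and 20.1, 19.4 and 21.6 in WT (log2 1.18, SE 0.14, adjusted p = 3.2e-04). In iTreg it was at 13.0, 11.9 and 11.8 CPM in KO and 7.05, 9.57 and 9.13 in WT, with no overlap but not past the test (0.52, SE 0.14, adjusted p = 0.33). Ero1lb was lower in iTreg than in nTreg (log2 -1.91 with the KO label, adjusted p = 4.7e-07, and -1.25 with the WT label, adjusted p = 1.0e-05), where Ero1l was higher. Prdx4, a peroxiredoxin that feeds oxidising power to the isomerases, was at 76.3, 69.5 and 62.9 CPM in iTreg KO and 111, 115 and 97.2 in iTreg WT, with no overlap, but did not pass (-0.63, SE 0.11, adjusted p = 0.051).

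No partner gene of 9 tested passed with the KO label against WT. P4ha1 and P4ha2 encode the catalytic subunits that pair with the product of P4hb in prolyl 4-hydroxylase. P4ha1 was at 105, 225 and 75.2 CPM in iTreg KO, 269.8, 284 and 90.2 in iTreg WT, and P4ha2 at 13.6, 43.0 and 2.54 in iTreg KO and 31.5, 51.3 and 1.81 in iTreg WT. As for P4hb, library 2 was the highest and library 3 the lowest with both labels. P4ha2 was nearly absent from nTreg, with 8 reads in the nTreg WT libraries together, against 1121 in iTreg WT, a ratio of 91.4 (95% counting interval 46.2 to 212). The product of Tapbp helps to load MHC class I molecules, as those of Calr and Pdia3 do, and B2m encodes a subunit of these molecules. Both genes were lower in iTreg with both labels. The log2 values were -0.69 with the KO label and -0.59 with the WT label for Tapbp, and -0.86 and -0.95 for B2m. Of all genes tested, 29.8% were lower in iTreg with the KO label and 30.4% with the WT label.

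**Figure D5:**
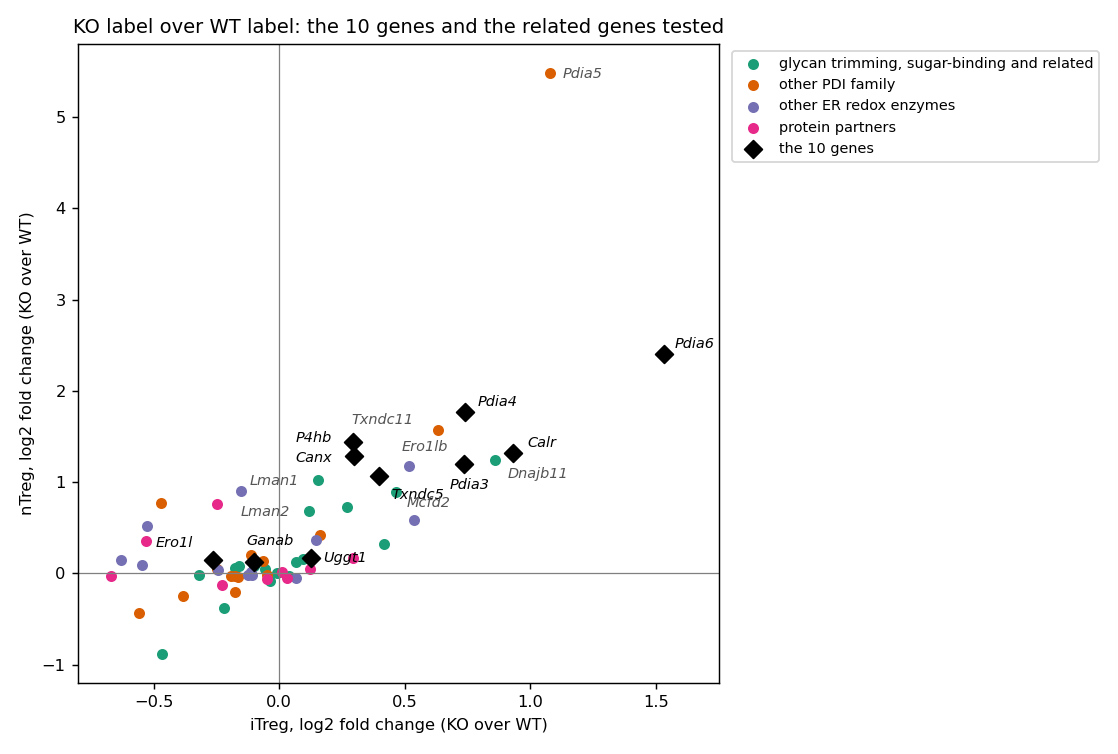
Log2 fold change of KO over WT in iTreg (x axis) and in nTreg (y axis) for the 10 genes (diamonds) and the 53 related genes tested (circles, coloured by list), with names for the 10 and for related genes that passed in either. Most related genes lie near 0 on both axes, while 7 of the 10 lie above 1 in nTreg. The Pdia5 value rests on 3 reads in nTreg WT.

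Markers of other cells were read beside these values. The plasma cell list, 7 markers in the files, summed to 1219 to 1428 CPM in iTreg KO and 968 to 1255 in iTreg WT, and to 624 to 680 in nTreg KO and 256 to 275 in nTreg WT. Xbp1 and Irf4, which T cells also express, held most of the nTreg sums, with Xbp1 at 367, 405 and 370.1 CPM in nTreg KO and 89.8, 90.02 and 101 in nTreg WT. Derl3, an ER protein of the degradation pathway that is also on this list, was at 20.8, 14.3 and 10.1 CPM in iTreg KO and 2.48, 2.34 and 2.35 in iTreg WT, and at 86.7, 94.5 and 66.7 in nTreg KO and 1.77, 2.12 and 1.02 in nTreg WT, with no overlap in either cell type. Igj was at 16.7, 0.819 and 1.29 CPM in nTreg KO and 27.9, 0.991 and 1.40 in nTreg WT. Sdc1 was at most 0.811 CPM in nTreg. In iTreg it was at 1.43 to 2.30 CPM in KO and 1.63 to 2.94 in WT. Tnfrsf17 was at 0 in iTreg and at most 0.148 CPM in nTreg. Irf4 was at 146 to 151 CPM in nTreg KO and 116 to 130 in nTreg WT. Prdm1 went the other way in nTreg, with 26.7 to 34.0 CPM in KO and 32.9 to 42.2 in WT. In iTreg Prdm1 was at 1.46 to 4.33 CPM in KO and 1.66 to 3.25 in WT. The myeloid list, 8 markers, summed to at most 6.02 CPM in iTreg KO and 5.27 in iTreg WT, and to 33.4 to 308 in nTreg KO and 39.0 to 144 in nTreg WT, so that the groups overlapped. The B cell list, 6 markers, summed to 16.5 to 17.2 CPM in nTreg KO and 28.1 to 33.7 in nTreg WT. The nTreg libraries numbered 2 had the highest myeloid sums, and without both of them 6 of the 10 genes and 100 genes in all rose in nTreg. The CD8 list (2 markers) summed to 8.42 to 10.9 CPM in iTreg KO and 12.6 to 21.3 in iTreg WT, without overlap, and to 14.7 to 19.1 in nTreg KO and 12.03 to 17.03 in nTreg WT. The NK cell list (5) summed to 8.87 to 23.4 CPM in iTreg KO and 7.68 to 15.2 in iTreg WT, and to 4.06 to 4.98 in nTreg KO and 5.86 to 12.7 in nTreg WT, without overlap in nTreg. The dendritic cell list (6) summed to 0.951 to 1.27 CPM in iTreg KO and 1.80 to 4.07 in iTreg WT, without overlap, and to 3.48 to 6.11 in nTreg KO and 3.07 to 6.65 in nTreg WT. The red cell list (3 in the files) summed to at most 0.756 CPM in any library. The part of such cells in the results was not tested.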

How the data were processed

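RNA of 12 libraries was sequenced on a NextSeq 500, and the deposited values are the authors' raw counts for each gene symbol, with 1 file per library. The submitters' processing notes name cutadapt 1.13, STAR, HTSeq 0.6.1p1, DESeq2 and mm10, without roles or order. The gene annotation and the strand setting are not given in the sources used here.

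The deposited counts were tested with edgeR 4.0.16 (limma 3.58.1, R 4.3.3) with robust quasi-likelihood fits, TMM normalisation, a term per group and 8 residual degrees of freedom. The filter on low counts was edgeR's own, set to 10 counts and to a total of 15. Adjusted p is Benjamini-Hochberg over 12038 genes, with a threshold of 0.05 in each of 5 comparisons. SE and 95% intervals are on the log2 scale. The tests were tried on simulated counts that held neither the large cell type differences nor the pairing by library number of these data. No result above rests on that trial. No library was a copy of another. Counting intervals cover counting error only, as no molecular identifiers are named.

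KO and WT libraries of the same number deviated together from their group means (correlation 0.307 to 0.629 in iTreg and 0.438 to 0.572 in nTreg), but iTreg and nTreg libraries did not (-0.0539 to 0.0953). A fit that takes the number as a block, separately in iTreg and nTreg, has 4 residual degrees of freedom and is given where it changes a call. Other alternatives were RLE size factors, no filter, CPM of at least 5 in 3 libraries, DESeq2 1.42.0, the compared libraries alone, leaving out each library, and leaving out the 3 Xist libraries or both nTreg libraries numbered 2.

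The 10 genes, the lists and the alternatives were chosen with earlier results of these data known. Named beside the 10 are Syvn1, up to 4 related genes with the smallest p per list and comparison, and the 5 genes most like the mean of the 10. Some related genes that did not pass (Prkcsh, Prdx4, P4ha1) and the neighbours of Ero1l were named after their values were seen. Coordinates and exon lengths are from GENCODE M21, whose genome is that of mm10, and upstream windows from RefSeq, GRCm38.p6. The plots used matplotlib 3.10.9 and Python 3.11.15.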

Additional observations from a re-analysis of the deposited data

Results flagged for a closer look

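Canx was past the threshold in the test of its KO effect between the cell types. The difference of the log2 fold changes, iTreg minus nTreg, was -0.99 (SE 0.14, adjusted p = 0.012, edgeR's quasi-likelihood test of the interaction). Its KO effect was 0.30 in iTreg (SE 0.10) and 1.28 in nTreg (SE 0.10), with 894, 876 and 813 CPM in iTreg KO, 621, 724 and 759 in iTreg WT, 769.6, 806 and 866 in nTreg KO, and 338, 327 and 338 in nTreg WT. Ratios of KO to WT within a library number were 1.44, 1.21 and 1.07 in iTreg and 2.28, 2.46 and 2.56 in nTreg. The call was lost without any 1 of the nTreg WT libraries (adjusted p from 0.053 to 0.055), without the 3 Xist libraries (0.47) and without both nTreg libraries numbered 2 (0.20). With the library number as a block per cell type it was kept (adjusted p = 0.0075). In that fit P4hb, Pdia4, Pdia6 and Txndc5 passed too, also with the smaller effect in iTreg, so this was not particular to Canx.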

How the results depend on the processing

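With a replicate block (the library number) per cell type, 4 of the 10 genes passed in iTreg (3 without the block), 7 in nTreg (7) and 5 in the difference (1), and 114, 1083 and 217 of all genes (22, 304 and 35), among them all of those called without it. With a block shared by both cell types, which the numbers do not pair, every call of the 10 genes between iTreg and nTreg kept its side of the threshold.

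DESeq2 called 99 genes in iTreg (4 of the 10), 486 in nTreg and 138 in the difference, with 4 of the 10. The compared libraries alone gave 0 genes in iTreg (0 of the 10), 1142 in nTreg and 2 of the 10 between iTreg KO and nTreg KO (4 in all libraries). Without the 3 Xist libraries 0 genes were called in iTreg (0 of the 10), 71 in nTreg, 1 in the difference (0 of the 10), and 4 of the 10 with the WT label and 2 with the KO label between iTreg and nTreg. Without both nTreg libraries numbered 2 these were 7 genes in iTreg (1 of the 10), 103 in nTreg, 1 in the difference (0 of the 10) and 0 of the 10 between iTreg KO and nTreg KO. Counts under RLE size factors and either filter stayed within 1.5 times the main ones.

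Leaving out 1 library at a time gave 0 to 64 genes and 0 to 4 of the 10 in iTreg, 167 to 216 and 6 to 7 in nTreg, 1 to 58 and 0 to 2 in the difference, 7099 to 7842 and 5 to 7 with the WT label between cell types, and 6608 to 7294 and 1 to 3 with the KO label.

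Signs turned only for values that did not pass in either fit. With 1 library left out at a time, the iTreg value ran from -1.22 to 0.49 for Ero1l and from -0.011 to 0.52 for P4hb, the difference from -1.37 to 0.35 for Ero1l and from -0.094 to 0.042 for Uggt1, and the value of iTreg KO against nTreg KO from -0.27 to 0.065 for Calr, from -0.33 to 0.040 for Pdia6 and from -0.054 to 0.12 for Txndc5. Without the Xist libraries, Ero1l was at 0.49 in iTreg and 0.45 in the difference, and Txndc5 at -0.030 between iTreg KO and nTreg KO. The causes were not tested.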
